A study of Homo sapiens with 4 samples.

Results

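The HOX cluster genes were examined in BE(2)C cells with and without knockdown of MYCN. Members were all listed genes whose symbol is HOX followed by a cluster letter from A to D and a number, which gave 39 of the 26364 genes in the deposited tables, with 11 in HOXA, 10 in HOXB, 9 in HOXC and 9 in HOXD. No measured value was used to choose them. BE(2)C is an established human neuroblastoma line with amplification of MYCN, and its genotype is given as wild type in all samples. RNA-seq compared 2 groups. The 2 Ctrl samples received a non-targeting siRNA and the 2 MYCN KD samples an siRNA against MYCN. The labels give both groups the same transfection, with 80 nM siRNA in Lipofectamine 2000 for 6 h, and RNA was taken on the following day. The study's methods state a lower siRNA concentration, and the labels' value is given here. All samples came from the 1 cell line and a single siRNA against MYCN is named. The study calls its replicates biological, but no label states that the dishes were separate cultures, so the p-values measure only the spread between these samples, which may be technical. The authors had removed unwanted variation with RUVSeq before deposit. The spread is what was left after that step, so SEs and p-values may be too small, which was not tested.

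HOX genes encode homeodomain transcription factors that give cells their position along the head-to-tail axis. They lie in 4 clusters on different chromosomes and are numbered into paralog groups from 1 to 13. Low numbers are used toward the head and high numbers toward the tail. Neuroblastoma arises from trunk neural crest cells of the sympathetic lineage, and in the spinal cord and trunk HOX codes distinguish cervical, thoracic and lumbar levels.

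Values were RPKM, reads scaled to gene length and library size, so levels can be set side by side between genes. They behaved as whole counts divided by gene length and by totals from 29055819 to 34142988 per sample. Per the methods, RPKM came from counts that had been normalized with RUVSeq. The reads quoted here are therefore normalized counts and not reads as sequenced, and counting limits on them are approximate. Changes were tested on log2(RPKM + 1) with limma over the 11411 genes with a mean of at least 1 RPKM, with Benjamini-Hochberg adjusted p-values and a threshold of 0.05. A change on this scale understates that of a gene with low RPKM. Replicates 1 of both groups deviated from their group means in opposite ways (r = -0.98 across the 11411 genes, which are not independent), so the spread between replicates may not give the whole error. In bulk RNA, fewer cells that use a gene and less RNA per cell cannot be told apart. MYCN itself, the targeted gene, went from 1068 and 1073 RPKM in Ctrl to 720.2 and 718.0 RPKM in MYCN KD, a difference of -0.57 on the log2 scale (SE 0.0286, adjusted p = 0.00361, limma).

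HOX expression came almost wholly from HOXC and HOXD. The summed RPKM of all members went from 147.7 and 136.9 in Ctrl to 96.34 and 104.2 in MYCN KD. HOXC made up from 84.5% to 85.7% of it and HOXD from 14.3% to 15.3%, with both ranges over the 4 samples. The HOXC sum went from 126.0 and 115.7 RPKM in Ctrl to 81.51 and 89.25 RPKM in MYCN KD. The HOXD sum went from 21.56 and 21.0 RPKM in Ctrl to 14.7 and 14.87 RPKM in MYCN KD. Both clusters were thus lower in both MYCN KD samples than in either Ctrl sample, with ratios of the group means of 0.707 for HOXC and 0.695 for HOXD.

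HOXA and HOXB were close to silent. On the GRCh37 (hg19) build, HOXA spans chromosome 7 from 27132612 to 27239710 and HOXB chromosome 17 from 46605888 to 46806112, both on the minus strand. The 11 HOXA genes summed to 0.137, 0.0930, 0.0774 and 0.0411 RPKM in Ctrl replicates 1 and 2 and MYCN KD replicates 1 and 2, from 22 reads in all 4 samples together. The 10 HOXB genes held 12 reads over the 4 samples. No gene of HOXA had more than 2 reads in a sample and none of HOXB more than 3, the latter being HOXB13 in Ctrl replicate 2 at 0.0309 RPKM. The highest value of HOXA was HOXA6 in MYCN KD replicate 1, at 0.0429 RPKM from 1 read. These levels do not stand apart from 0, since a count of 0 allows up to 3 reads, which is from 0.0439 to 0.0516 RPKM for a gene of 2000 bases. Such limits cover counting error only. Of the 24 members under a mean of 0.1 RPKM, 8 had no read in any sample, namely HOXA2, HOXA9, HOXA10, HOXB1, HOXB2, HOXB5, HOXB8 and HOXD12. The other members with few reads in the active clusters were HOXC12, with 1 read in each of 2 samples, and HOXD11, with 1 read in MYCN KD replicate 1.

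Expressed genes lay within the flanks of all 4 clusters, but the nearest genes were low or without reads at HOXA, at HOXB and on one side of HOXD. Of the 5 nearest annotated protein-coding genes listed on either side of each cluster, 6 of 10 were at a mean of at least 1 RPKM around HOXA, 7 of 10 around HOXB, 9 of 10 around HOXC and 8 of 10 around HOXD. Listed genes without a match by symbol in the GENCODE annotation could not be placed and are missing from these sets. KIAA1715, from a list of cluster neighbours, was missing in this way, at a Ctrl mean of 3.82 RPKM. Of all 18083 listed protein-coding genes, 44.9% were under 1 RPKM. The genes nearest to HOXA, SKAP2 and EVX1, had Ctrl means of 0.196 and 0 RPKM, and those nearest to HOXB, SKAP1 and TTLL6, were at 0 in both Ctrl samples. Beside HOXD, EVX2 had a Ctrl mean of 0.0187 RPKM and MTX2, on the other side, 19.7 RPKM. Beside HOXC, CALCOCO1 and SMUG1 had Ctrl means of 2.69 and 10.0 RPKM.

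**Figure D1:**
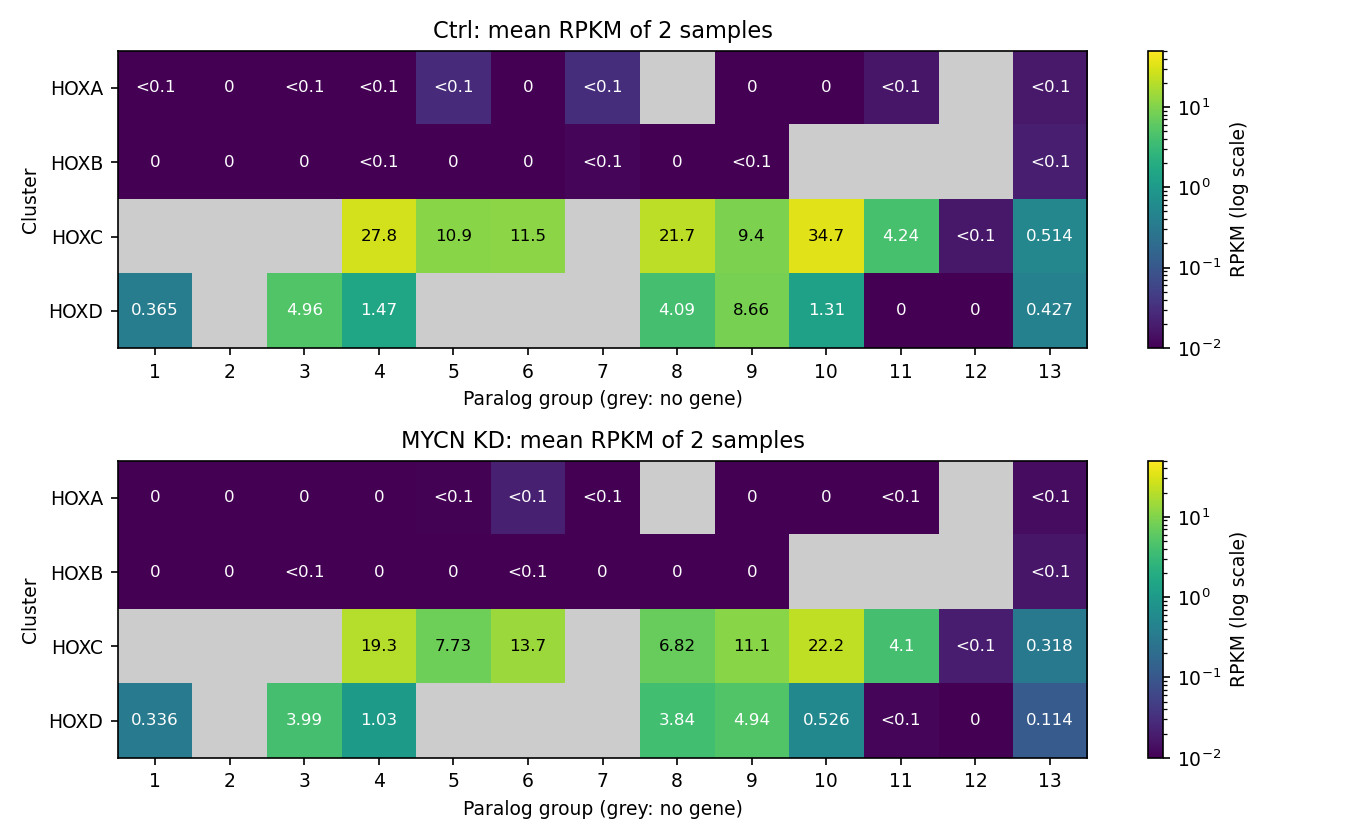
Mean RPKM of the 2 Ctrl samples (top) and the 2 MYCN KD samples (bottom) for each HOX gene, by cluster (rows) and paralog group (columns), with a logarithmic colour scale and grey where no gene exists. HOXA and HOXB are at 0 or under 0.1 RPKM throughout, while HOXC4 to HOXC11 and HOXD3 to HOXD9 are at least 1 RPKM in both groups.

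Within the active clusters, members with a mean of at least 1 RPKM over the 4 samples ran in HOXC from HOXC11 to the end with HOXC4, and in HOXD from HOXD9 to HOXD3. HOXC spans chromosome 12 from 54332615 to 54449814 and HOXD chromosome 2 from 176957449 to 177055635 (GRCh37), both on the plus strand, with group 13 first. A mean of at least 1 RPKM was reached by 11 members, and each of them was at least 1 RPKM in all 4 samples: HOXC4, HOXC5, HOXC6, HOXC8, HOXC9, HOXC10 and HOXC11, and HOXD3, HOXD4, HOXD8 and HOXD9. By paralog group over all 4 clusters, 1 of 8 members of groups 1 to 3 reached it, 6 of 15 of groups 4 to 8, and 4 of 16 of groups 9 to 13. These counts include HOXA and HOXB, which had no such member in any group. Within HOXC and HOXD, every member of groups 4 to 8 reached it. Another 4 had a mean over the 4 samples from 0.1 to 1 RPKM: HOXC13, HOXD1, HOXD10 and HOXD13. Of these, HOXD10 was above 1 RPKM in both Ctrl samples (1.36 and 1.25 RPKM), so in Ctrl alone the range in HOXD began at HOXD10.

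Among the members with a mean of at least 1 RPKM over the 4 samples, the order of levels differed between the groups. In Ctrl it was, from the highest mean, HOXC10, HOXC4, HOXC8, HOXC6, HOXC5, HOXC9, HOXD9, HOXD3, HOXC11, HOXD8 and HOXD4. The values of neighbours overlapped for HOXC6 and HOXC5, HOXC5 and HOXC9, HOXC9 and HOXD9, and HOXC11 and HOXD8, so the order within those pairs does not exceed the spread. In MYCN KD it was HOXC10, HOXC4, HOXC6, HOXC9, HOXC5, HOXC8, HOXD9, HOXC11, HOXD3, HOXD8 and HOXD4, with overlap for HOXC11 and HOXD3 and for HOXD3 and HOXD8. HOXC10 and HOXC4 were the highest 2 in both groups, and HOXC8 moved from rank 3 to rank 6.

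Most of the expressed HOX genes were lower after MYCN knockdown. Of the 11 tested, 6 were lower past the threshold, 1 was higher and 4 did not pass. Over all genes tested, 22.8% were called lower and 25.3% higher. The median change of the 11 was -0.28 on the log2(RPKM + 1) scale, beside 0.03 over all genes tested. In 7 of the 11 both MYCN KD values lay below both Ctrl values, as they did for 35.8% of all genes tested. In 1 both lay above, as for 40.4% of all genes tested, and in 3 the groups overlapped. With the filter lowered to a mean of 0.1 RPKM, 15 members were tested over 14992 genes, and 8 were lower and 1 higher, where 18.3% of all genes were called lower and 23.4% higher.

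**Figure D2:**
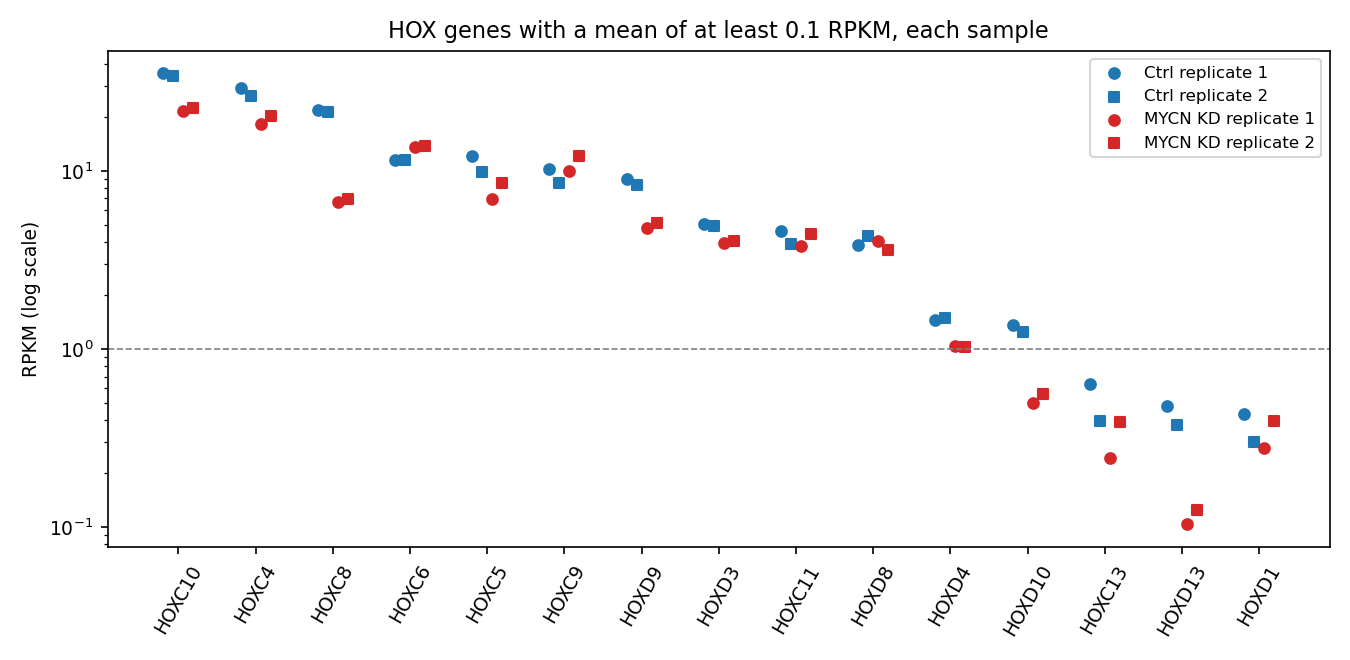
RPKM of each sample (log axis) for the 15 HOX genes with a mean of at least 0.1 RPKM, with Ctrl in blue and MYCN KD in red and the replicates as circles and squares. HOXC8 drops from 21.4 and 22.1 RPKM in Ctrl to 6.71 and 6.94 RPKM in MYCN KD, and the dashed line marks 1 RPKM.

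On the log2(RPKM + 1) scale the largest change among the members was in HOXC8, which specifies motor neurons at the lower cervical to upper thoracic level. HOXC8 (chromosome 12, 54402769 to 54406553) was at 22.1 and 21.4 RPKM in Ctrl, from 1725 and 1566 reads, and at 6.71 and 6.94 RPKM in MYCN KD, from 446 and 491 reads. The groups were far apart and the replicates close together. The mean fell from 21.7 ± 0.479 to 6.82 ± 0.160 RPKM (SD, n = 2 each), to 0.314 of Ctrl. The change was -1.54 on the log2 scale (SE 0.0428, adjusted p = 0.00359, limma). Only 8 of the 11411 tested genes, HOXC8 included, had a change this low or lower, which is 0.0701%.

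HOXC10, HOXD9 and HOXD10 also fell. HOXC10, which helps to set lumbar motor neuron identity, was at 35.3 and 34.0 RPKM in Ctrl and at 21.8 and 22.7 RPKM in MYCN KD (log2 change -0.62, SE 0.0445, adjusted p = 0.00481, limma). HOXD9, which acts in limb and lumbar patterning, was at 8.97 and 8.36 RPKM in Ctrl and at 4.77 and 5.11 RPKM in MYCN KD (-0.70, SE 0.0602, adjusted p = 0.00604, limma). In both genes the 2 groups were separate, with MYCN KD at 0.642 of Ctrl for HOXC10 and 0.570 for HOXD9. HOXD10, a partner of HOXC10 in the lumbar spinal cord, was at 1.36 and 1.25 RPKM in Ctrl, from 84 and 72 reads, and at 0.496 and 0.555 RPKM in MYCN KD, from 26 and 31 reads. Its ratio was 0.403, and with the lower filter it passed the test (-0.60, SE 0.0455, adjusted p = 0.00693, limma). HOXD10 and HOXD11 share 452 exon bases on the same strand in GENCODE, and HOXD11 was at 0 in 3 of the 4 samples.

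HOXD13, which patterns the digits and the urogenital tract, fell from a low level. It had 38 and 28 reads in Ctrl (0.478 and 0.376 RPKM) and 7 and 9 reads in MYCN KD (0.104 and 0.125 RPKM). Its ratio of 0.267, below that of HOXC8, rests on few reads, and with the lower filter it passed the test (-0.36, SE 0.0472, adjusted p = 0.0150, limma). HOXC13, a gene of hair and nail formation, had 52 and 30 reads in Ctrl and 17 and 29 reads in MYCN KD. Its 0.392 RPKM in Ctrl replicate 2 was almost met by the 0.391 RPKM of MYCN KD replicate 2, and it did not pass (-0.20, SE 0.112, adjusted p = 0.238, limma). Leaving out any 1 sample gave changes of HOXC13 from -0.31 to -0.081, and whether it passed depended on the sample left out.

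HOXC4 and HOXC5, which act at cervical levels of the spinal cord, lay below Ctrl in both MYCN KD samples, and HOXC4 passed the test. HOXC4 was at 29.4 and 26.2 RPKM in Ctrl and at 18.3 and 20.4 RPKM in MYCN KD (-0.50, SE 0.0891, adjusted p = 0.0220, limma). HOXC5 was at 12.1 and 9.81 RPKM in Ctrl and at 6.95 and 8.51 RPKM in MYCN KD. Its groups did not overlap, but the spread within them was wide and it did not pass (-0.45, SE 0.149, adjusted p = 0.0815, limma). Leaving out any 1 sample gave changes of HOXC5 from -0.59 to -0.31, and whether it passed depended on the sample left out. The ratio of HOXC5 to HOXC4 within a sample stayed between 0.374 and 0.417, and these ranges of Ctrl (0.412 and 0.374) and MYCN KD (0.380 and 0.417) overlapped. In GENCODE, HOXC4 shares 484 exon bases on the same strand with HOXC6. How reads shared by these genes were counted is not given in the sources used here, so levels of both are uncertain. In HOXC5, 67.3% of the exon bases are shared with an unnamed noncoding gene, which is not among the listed genes. The length inferred behind the HOXC5 values was 2175 bases, against 1611 exon bases in GENCODE, so these overlaps may not describe the gene models that were counted.

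HOXC6, HOXC9 and HOXC11 were not called lower. HOXC6, which specifies brachial motor neurons, was at 11.6 and 11.5 RPKM in Ctrl and at 13.7 and 13.8 RPKM in MYCN KD (0.23, SE 0.0362, adjusted p = 0.0167, limma). It was the only tested member called higher, and leaving out any single sample ended the call (adjusted p from 0.168 to 0.200, limma). HOXC9, which sets thoracic identity and represses HOXC6 in motor neurons, was at 10.3 and 8.503 RPKM in Ctrl and at 10.1 and 12.1 RPKM in MYCN KD. Its groups overlapped and it did not pass (0.22, SE 0.138, adjusted p = 0.268, limma). Leaving out any 1 sample gave changes of HOXC9 from 0.090 to 0.34, and whether it passed depended on the sample left out. HOXC11, a gene of the hindlimb and sacral region, was at 4.57 and 3.90 RPKM in Ctrl and at 3.78 and 4.41 RPKM in MYCN KD, again with overlap (-0.04, SE 0.104, adjusted p = 0.782, limma). The sign of this small difference turned when the samples were rescaled to the same total.

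Ratios within a sample do not depend on a factor that scales the whole sample. The RUVSeq step before deposit may still have altered them, which was not tested. In the deposited values the ratios show how unequal the changes inside HOXC were. HOXC8 was at 1.91 and 1.86 times HOXC6 in Ctrl and at 0.489 and 0.504 times in MYCN KD. Against HOXC9 it was at 2.14 and 2.52 times in Ctrl and at 0.668 and 0.573 times in MYCN KD. Both ratios crossed 1, so HOXC8 went from above to below both neighbours in each pair of samples. HOXC10 to HOXC9 went from 3.43 and 4.00 to 2.17 and 1.88, with HOXC10 above HOXC9 in all samples.

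**Figure D3:**
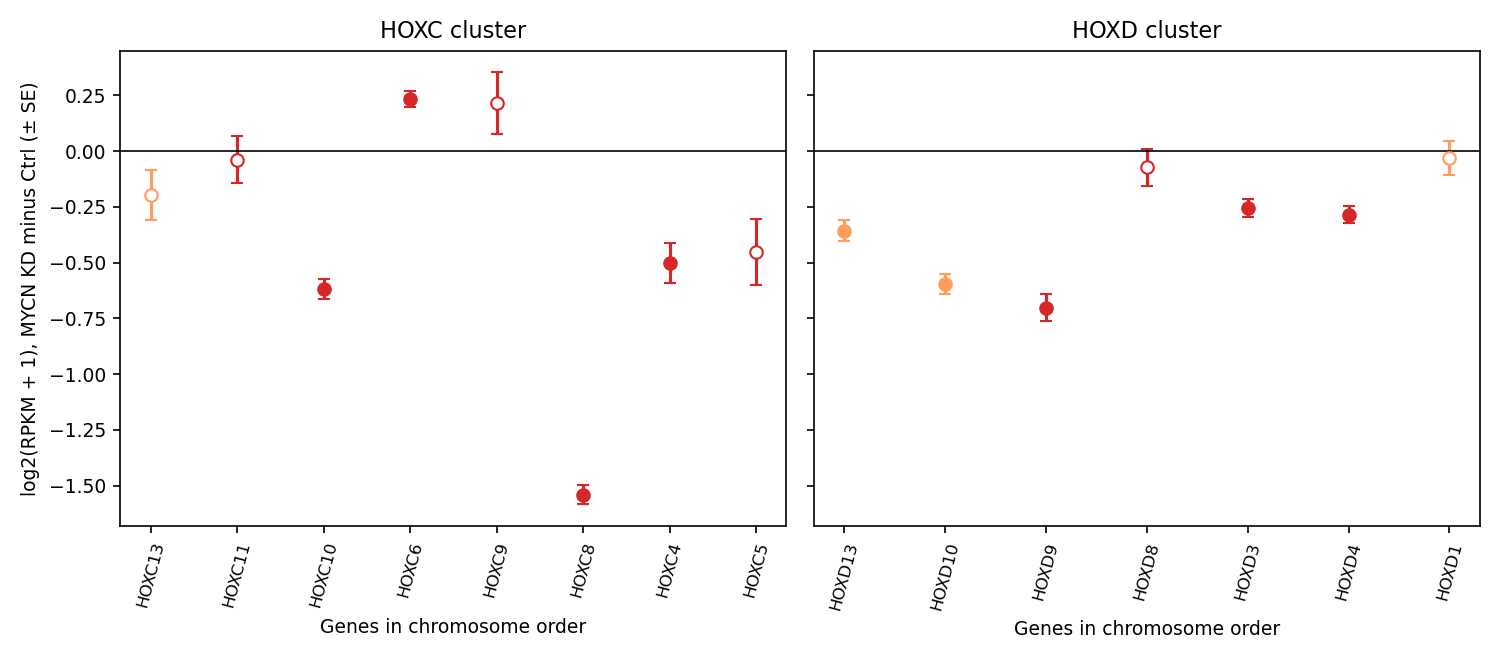
Change in log2(RPKM + 1), MYCN KD minus Ctrl, with its SE, for the HOXC (left) and HOXD (right) genes with a mean of at least 0.1 RPKM, ordered by annotated start along the chromosome. Filled points pass the adjusted threshold, open points do not, and orange points were tested with the lower filter. HOXC8, at -1.54, lies below all others, and HOXC6 and HOXC9 lie above 0.

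HOXD3 and HOXD4 were lower by small amounts, and HOXD8 and HOXD1 did not pass. HOXD3, used in the neck and hindbrain region, was at 5.03 and 4.88 RPKM in Ctrl and at 3.94 and 4.05 RPKM in MYCN KD (-0.25, SE 0.0423, adjusted p = 0.0192, limma). HOXD4 was at 1.446 and 1.496 RPKM in Ctrl, from 64 and 62 reads, and at 1.04 and 1.02 RPKM in MYCN KD, from 39 and 41 reads (-0.28, SE 0.0363, adjusted p = 0.0114, limma). Both genes had separate groups, but neither call was firm. The HOXD3 call was lost without any single sample (adjusted p from 0.126 to 0.205, limma), and the HOXD4 call held only without Ctrl replicate 1 (adjusted p = 0.0497) and otherwise reached 0.0887 (limma). HOXD8, a trunk gene, was at 3.84 and 4.33 RPKM in Ctrl and at 4.06 and 3.61 RPKM in MYCN KD, with overlapping groups (-0.07, SE 0.0818, adjusted p = 0.502, limma). HOXD1, which acts in pain-sensing neurons, was at 0.430 and 0.301 RPKM in Ctrl and at 0.279 and 0.393 RPKM in MYCN KD, also with overlap (-0.03, SE 0.0746, adjusted p = 0.756, limma, lower filter). The ratio of HOXD9 to its neighbour HOXD8 went from 2.33 and 1.93 in Ctrl to 1.17 and 1.41 in MYCN KD, so HOXD9 came closer to HOXD8 without falling below it. In GENCODE, 24.4% of the exon bases of HOXD8 are shared with HOXD-AS2 on the opposite strand, and the strand setting of the counting is not given in the sources used here.

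**Figure D4:**
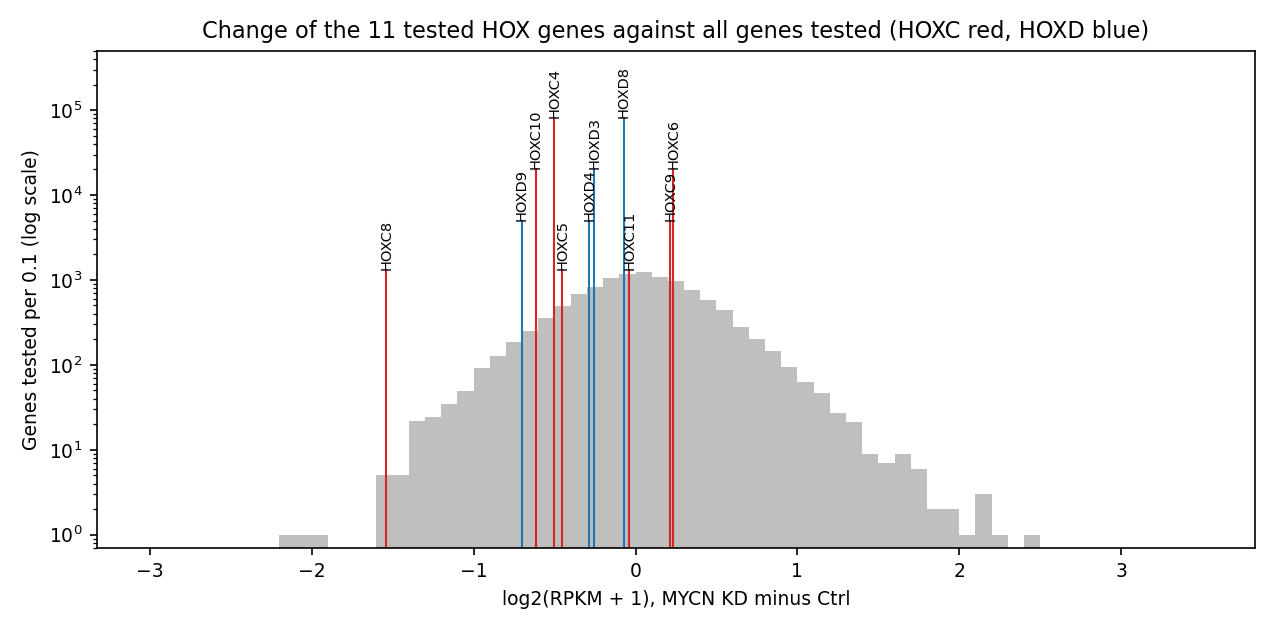
Histogram of the change in log2(RPKM + 1), MYCN KD minus Ctrl, over the 11411 genes tested (count on a log axis, bins of 0.1), with vertical lines at the 11 tested HOX genes, HOXC in red and HOXD in blue. HOXC8 lies in the far lower tail, while the other 10 lie between -0.70 and 0.23.

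MYCN and MYC bind the E-box, of which CACGTG is the preferred form, and promoters of a few members are shown to let that sequence be seen. RefSeq promoters on GRCh38.p14, from 250 bases before to 50 bases after a start, were matched by symbol for 20 of the 39 members. Of the members with a mean of at least 1 RPKM, HOXC6, HOXC8, HOXC9, HOXC10, HOXC11 and HOXD9 had no entry. The largest changes among these members, in HOXC8, HOXD9 and HOXC10, are thus not among the promoters searched. HOXD10 and HOXD13, under that mean and with ratios of 0.403 and 0.267, were searched. CACGTG, which reads the same on both strands, was in 2548 of 35116 promoters of all genes (7.26%) and in 9 of the 27 promoters of HOX members (33.3%). By member, 5 of 8 HOXD genes had it (HOXD1, HOXD3, HOXD10, HOXD11 and HOXD13) and 4 of 9 HOXA genes. HOXB1 and the matched HOXC genes, HOXC4 and HOXC5, did not. The motif was thus found in promoters of HOXD3, HOXD10 and HOXD13, which were lower in MYCN KD, of HOXD1, which did not pass, and of HOXA genes with almost no reads, and it was missing from that of HOXD4, which was lower. HOXC4 and HOXC5 have 1 and the same entry among these RefSeq promoters (chr12:54016638-54016937, plus strand). Their GENCODE starts on GRCh37 differ, at 54410715 for HOXC4 and 54426834 for HOXC5, and the bases before that HOXC5 start were not searched. The others printed are those of HOXD3 (chr2:176157057-176157356), HOXD10 (chr2:176116528-176116827), HOXD13 (chr2:176092471-176092770) and, as the neighbour that did not pass, HOXD8 (chr2:176129455-176129754), all on the plus strand. The sequences run 5′ to 3′, with CACGTG in capitals where it occurs. The HOXD3 promoter lies past that of HOXD4 (which begins at 176151300). The GENCODE start of HOXD3 on GRCh37 (177001340) lies before that of HOXD4 (177016278), so the bases before that HOXD3 start were not searched. For HOXD10 too, the start used may not be the GENCODE start (176973518 on GRCh37). A match is a description of the letters and was not tested as a binding site.
HOXC4 and HOXC5: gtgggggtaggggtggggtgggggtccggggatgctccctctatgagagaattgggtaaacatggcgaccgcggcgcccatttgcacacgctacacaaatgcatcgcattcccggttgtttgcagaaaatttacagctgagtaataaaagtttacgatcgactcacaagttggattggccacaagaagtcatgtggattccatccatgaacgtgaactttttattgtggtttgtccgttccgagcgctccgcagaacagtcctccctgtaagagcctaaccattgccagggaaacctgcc
HOXD3: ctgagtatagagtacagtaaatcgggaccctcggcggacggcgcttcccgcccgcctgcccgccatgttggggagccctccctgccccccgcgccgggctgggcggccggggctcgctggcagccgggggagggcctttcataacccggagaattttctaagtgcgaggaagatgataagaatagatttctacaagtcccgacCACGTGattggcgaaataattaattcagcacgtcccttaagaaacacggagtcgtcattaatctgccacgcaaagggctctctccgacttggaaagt
HOXD8: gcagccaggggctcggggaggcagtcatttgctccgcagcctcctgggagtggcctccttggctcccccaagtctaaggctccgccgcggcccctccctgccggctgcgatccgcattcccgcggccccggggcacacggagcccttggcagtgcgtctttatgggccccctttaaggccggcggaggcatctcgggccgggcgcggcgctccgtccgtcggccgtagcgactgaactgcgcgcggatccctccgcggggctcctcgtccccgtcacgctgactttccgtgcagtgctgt
HOXD10: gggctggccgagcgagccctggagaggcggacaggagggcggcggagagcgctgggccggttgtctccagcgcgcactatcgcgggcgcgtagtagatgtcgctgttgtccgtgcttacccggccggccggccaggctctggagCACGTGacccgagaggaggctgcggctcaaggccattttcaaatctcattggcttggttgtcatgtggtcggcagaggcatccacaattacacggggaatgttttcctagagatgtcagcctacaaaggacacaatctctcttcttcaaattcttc
HOXD13: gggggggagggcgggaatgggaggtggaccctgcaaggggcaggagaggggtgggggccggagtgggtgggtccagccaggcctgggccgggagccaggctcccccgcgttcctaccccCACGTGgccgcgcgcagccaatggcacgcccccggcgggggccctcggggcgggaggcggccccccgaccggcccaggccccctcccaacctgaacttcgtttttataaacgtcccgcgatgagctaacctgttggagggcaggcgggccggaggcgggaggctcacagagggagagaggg

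The capitals begin 47 bases before the start in HOXD3, 106 in HOXD10 and 131 in HOXD13.

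Noncoding genes of the clusters were expressed in the same 2 clusters. Of 23 listed, 4 of 7 in HOXC and 2 of 4 in HOXD were at a mean of at least 1 RPKM, and 0 of 8 in HOXA and 0 of 4 in HOXB were, the highest of these at 0.00351 RPKM. Of the 6 tested, 2 were higher, 0 were lower and 4 did not pass, beside 25.3% higher and 22.8% lower over all genes tested. HOXC-AS1, an antisense RNA beside HOXC9, was at 1.71 and 1.43 RPKM in Ctrl and at 2.39 and 2.77 RPKM in MYCN KD, from 25 to 47 reads a sample (0.48, SE 0.0917, adjusted p = 0.0257, limma). HOXD-AS2, an antisense RNA over HOXD8 and HOXD9, was at 17.3 and 16.5 RPKM in Ctrl and at 19.0 and 19.8 RPKM in MYCN KD (0.18, SE 0.0471, adjusted p = 0.0482, limma). The HOXC-AS1 call was lost with quantile normalization (adjusted p = 0.0601), and the HOXD-AS2 call also without any single sample (adjusted p from 0.193 to 0.391, limma). HOTAIR, the long noncoding RNA between HOXC11 and HOXC12, was at 7.31 and 6.79 RPKM in Ctrl and at 6.22 and 6.68 RPKM in MYCN KD, lower in both MYCN KD samples but not past the threshold (-0.11, adjusted p = 0.216, limma). HAGLR, beside HOXD1, was at 5.71 and 6.44 RPKM in Ctrl and at 7.22 and 6.43 RPKM in MYCN KD, with overlap (0.15, adjusted p = 0.245, limma).

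HOX proteins bind DNA with cofactors of the TALE class, which comprises the PBX, MEIS and PKNOX genes. Of 9 listed, 5 were tested, with 1 higher, 2 lower and 2 not past, a count too small to set apart from the 25.3% and 22.8% of all genes tested. MEIS3 was at 4.00 and 3.42 RPKM in Ctrl and at 7.07 and 8.22 RPKM in MYCN KD, 2.06 times as high (0.88, SE 0.106, adjusted p = 0.0104, limma). MEIS2, the most abundant of them, was at 21.5 and 23.2 RPKM in Ctrl and at 17.2 and 16.0 RPKM in MYCN KD (-0.41, SE 0.0645, adjusted p = 0.0173, limma). PKNOX1 was at 8.08 and 8.72 RPKM in Ctrl and at 6.41 and 5.96 RPKM in MYCN KD (-0.39, SE 0.0629, adjusted p = 0.0182, limma). The 2 groups were separate in each of these genes, with MEIS3 higher and the other 2 lower. The PKNOX1 call was lost without Ctrl replicate 2 (adjusted p = 0.0502) or MYCN KD replicate 2 (adjusted p = 0.0570, limma). PBX3 was at 13.3 and 15.2 RPKM in Ctrl and at 13.97 and 12.29 RPKM in MYCN KD (-0.11, adjusted p = 0.411, limma). MEIS1 was at 4.52 and 4.81 RPKM in Ctrl and at 4.59 and 4.33 RPKM in MYCN KD (-0.05, adjusted p = 0.456, limma). Both overlapped between the groups. PBX4 had means of 0.415 and 0.409 RPKM in Ctrl and MYCN KD, and PKNOX2 had no read. PBX2 was listed at 0.0475 to 0.0571 RPKM, but it lies in the stretch of chromosome 6 around the major histocompatibility complex, where 156 of 159 listed protein-coding genes were under 1 RPKM (98.1%, against 44.9% of all 18083). The part of this stretch in its low value was not tested.

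**Figure D5:**
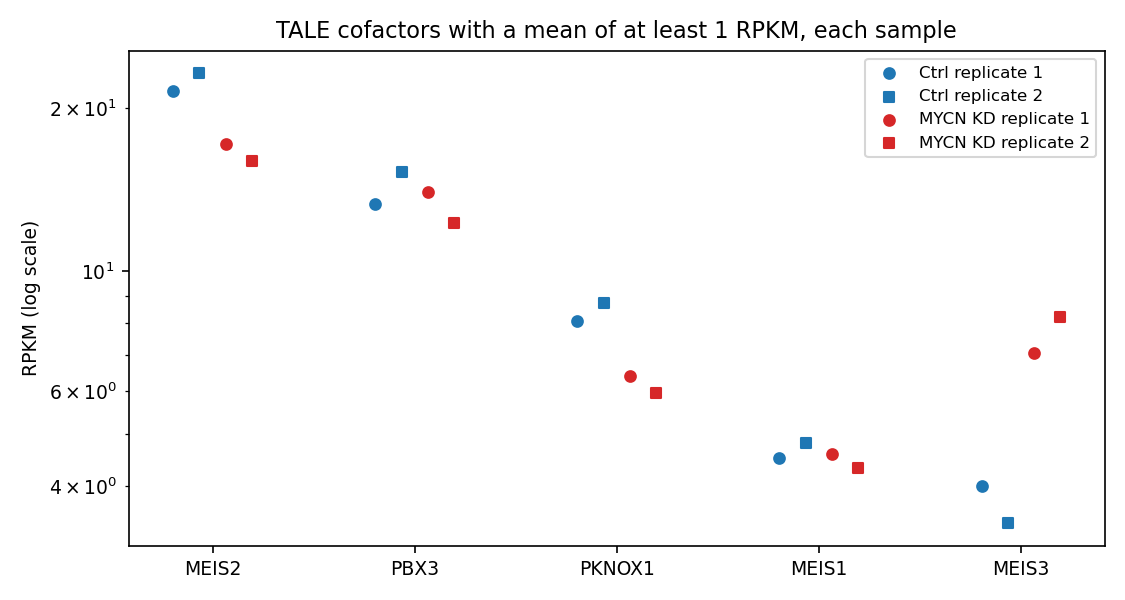
RPKM of each sample (log axis) for the 5 TALE cofactor genes with a mean of at least 1 RPKM, with Ctrl in blue and MYCN KD in red and the replicates as circles and squares. MEIS3 is higher in both MYCN KD samples, and MEIS2 and PKNOX1 are lower in both.

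Regulators that act on HOX clusters were called lower at about the rate of all genes. Of 25 genes for Trithorax and Polycomb proteins and related factors, 22 were tested, with 0 higher, 4 lower and 18 not past, where 25.3% of all genes tested were higher and 22.8% lower. EZH2, the methyltransferase of Polycomb repressive complex 2, had means of 31.1 and 21.6 RPKM in Ctrl and MYCN KD (-0.51, adjusted p = 0.0162, limma). WDR5, a core subunit of the KMT2 methyltransferases that keep HOX genes active, had means of 50.1 and 39.2 RPKM (-0.35, adjusted p = 0.00971, limma). The other 2 were RBBP5 (-0.23, adjusted p = 0.0387) and ASH2L (-0.20, adjusted p = 0.0255, limma), which belong to the same core, and both calls were lost without any single sample, at up to 0.281 and 0.290. Geminin (GMNN), a replication protein that also binds HOX proteins, had means of 44.1 and 31.1 RPKM (-0.49, adjusted p = 0.00556, limma). Of 17 listed genes of retinoic acid and other signals upstream of HOX, 6 were tested. CRABP1, a retinoic acid binding protein, was higher (0.50, adjusted p = 0.0422), RXRA, a retinoid receptor, was lower (-0.51, adjusted p = 0.0135), and 4 did not pass (limma). The ParaHox genes, the sister cluster of HOX, did not reach the filter, with 4 of 6 without a read and a highest mean of 0.0529 RPKM for CDX1.

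Genes flanking HOXC were called in both directions. Of the 10 flanking HOXC, 5 were higher and 1 lower, beside the 25.3% and 22.8% of all genes tested. From a list of cluster neighbours, 6 of 14 listed were tested, with 2 higher, 1 lower and 3 not past. CALCOCO1, on the HOXC13 side of HOXC, was higher (0.58, adjusted p = 0.00436, limma), and so was SMUG1 on the HOXC4 side (0.34, adjusted p = 0.00861, limma). HIBADH, beyond EVX1 on the far side of HOXA, was lower (-0.29, adjusted p = 0.0417, limma). The SMUG1 call was lost without MYCN KD replicate 1 or 2 (adjusted p = 0.0529 and 0.0574), and the HIBADH call without Ctrl replicate 2 or MYCN KD replicate 2 (0.185 and 0.196, limma).

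The labelled cell type was checked against markers. All 10 adrenergic neuroblastoma markers were tested, with means from 28.5 to 1940 RPKM, and 7 were higher and 1 lower in MYCN KD, beside 25.3% and 22.8% of all genes tested. Their summed level went from 3513 and 3240 RPKM in Ctrl to 4666 and 5053 RPKM in MYCN KD. Of 7 mesenchymal-state markers, 1 was tested and did not pass. Of 5 fibroblast markers, 3 were tested and 2, COL1A1 and DCN, were higher, with sums going from 12.56 and 14.97 RPKM in Ctrl to 19.6 and 16.7 RPKM in MYCN KD and with COL1A2 at means under 0.1 RPKM. S100B, a Schwann cell marker, went from 4.05 and 3.86 RPKM in Ctrl to 6.97 and 7.29 RPKM in MYCN KD (0.71, adjusted p = 0.00453, limma), while SOX10 was at means under 0.1 RPKM. None of 5 blood markers and none of 4 epithelial markers was tested, and the epithelial sums went from 1.07 and 1.02 RPKM in Ctrl to 2.04 and 1.97 RPKM in MYCN KD. The part of these marker differences in the HOX values was not tested.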

How the data were processed

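RNA-seq was deposited for 4 samples of BE(2)C cells, 2 Ctrl and 2 MYCN KD, grouped by their labels. Per the labels and methods, the authors aligned reads with HISAT2 2.1.0 against hg19, counted RefSeq genes with featureCounts, used DESeq2 and RUVSeq to model counts and remove unwanted variation, and deposited RPKM values. The RUVSeq settings and the strand setting are not given in the sources used here. Whole normalized counts, called reads here, were recovered from the RPKM steps. For miRNA hairpin genes of known length, 95.0% to 96.4% of values came out whole (tolerance 0.02), which set totals of 34142988, 31976939, 29055819 and 30941778. Other lengths were inferred from the same steps, so that all 19908 genes above 0 came out whole in part by construction. Because the values were adjusted before deposit, these totals give an approximate counting precision only. On log2(RPKM + 1), limma 3.58.1 (R 4.3.3, eBayes with a trend, no block) was fitted over genes with a mean of at least 1 RPKM, or 0.1 RPKM for lower members, and was tested on simulated data. Added after seeing the data, limma voom on the recovered reads called 2585 genes lower and 2909 higher, against 2599 and 2890. Other steps used Python 3.11.15 (scipy 1.17.1, numpy 2.4.6, pandas 2.3.3, matplotlib 3.10.9). Positions came from GENCODE on GRCh37. Named genes were MYCN, all HOX genes with a mean of at least 1 RPKM, the others by reads and counts and by name for the highest, the cofactors, and up to 4 called genes in each direction of every other list. HOXC12, HOXD11, SKAP2, TTLL6, HOTAIR, HAGLR and other single genes outside that rule were named after their values were seen. The members, lists and tests were chosen with earlier results of these data known. No pairing of samples by replicate number was found in the deposited values: same-numbered samples had opposite deviations. Because RUVSeq came before deposit, a pairing of the dishes cannot be told from these values. Some genes of the cofactor and marker lists are not reported here.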

Additional observations from a re-analysis of the deposited data

How the results depend on the processing

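HOXC8, HOXC10, HOXC4 and HOXD9 were lower past the threshold in every setting run. The count of lower HOX genes, 6 of 11, ranged from 4 to 9, and without 1 sample from 4 to 5. The median change of tested members, -0.28, was -0.016 without a filter (31 members), -0.50 with a mean of at least 5 RPKM (7 members), -0.48 with a pseudocount of 0.1, -0.50 with limma voom on recovered reads, and -0.51 with voom at a minimum of 10 reads (15 members). HOXC11 turned to 0.011 when samples were rescaled to the same total, and HOXC-AS3 to -0.062 with quantile normalization. Without 1 sample, HOXC11 ranged from -0.13 to 0.054 and HOXD1 from -0.10 to 0.037. The 2 noncoding genes called higher became 1 with a mean of at least 0.1 or 5 RPKM, with no filter, with both voom runs and without any 1 sample, and 0 with quantile normalization. Without 1 sample, calls of HOX genes were both lost and gained, depending on the sample left out. Those gained were HOXC5 and HOXC13 as lower and HOXC9 as higher, while HOXC6 was no longer called higher. These runs, like the replicate block, leave 1 residual degree of freedom, so the spread comes mostly from the trend over genes and a lone sample is assumed to vary like the other group.

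In the deposited values the replicate numbers did not pair the samples, since same-numbered samples had deviations with a correlation of -0.98. RUVSeq had been applied before deposit, so this cannot tell whether same-numbered dishes had been paired. With the replicate block, 5 HOX genes were lower (HOXC5 gained, at an adjusted p of 0.0266, limma) and 0 higher, 1 cofactor was lower and 1 noncoding gene higher. The replicate block called 1851 genes lower and 2077 higher of all 11411, against 2599 and 2890 in the main fit. HOXC6, HOXD3 and HOXD4 were then not past the threshold (adjusted p of 0.281, 0.260 and 0.143), nor was PKNOX1 (0.0671). With the crossed replicate block, added after seeing the data, 9 HOX genes were lower and 2 higher, 4 cofactors lower, and 5 noncoding genes higher and 1 lower; that fit called 5262 genes lower and 5910 higher of all 11411, so these counts say nothing particular to HOX. Depth limits HOXC13, HOXD1, HOXD4, HOXD10, HOXD13 and HOXC-AS1, at 7 to 84 reads a sample. Approximate 95% counting limits of HOXD4 overlapped between the groups. They were 1.11 to 1.85 RPKM in Ctrl replicate 1 and 0.736 to 1.42 RPKM in MYCN KD replicate 1. Groups of 2 allow no exact permutation p under 0.333.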
